A study of Mus musculus with 6 samples.

Results

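Purinergic signalling in mouse iNKT cells, the invariant natural killer T lymphocytes that recognise lipids, was examined through 8 genes fixed by name, of which 5 were measured here among 22180 genes with a named array row. They are the ATP-gated channels P2rx7, P2rx4 and P2rx1 and the ectonucleotidases Entpd1 (CD39) and Nt5e (CD73). The ectoenzyme gene Cd38 and the adenosine receptor genes Adora2a and Adora2b had no row in the annotation used and were not analysed here. The row standing for a gene was the one whose only symbol was that gene's and, among several such rows, was selected on the highest mean over the 6 arrays. Each of the 5 had exactly 1 such row, so that mean decided nothing. The genes themselves were chosen with earlier results of these data known, so the counts of members that differ are a description and no evidence that the pathway stands apart.

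Extracellular ATP acts on cells as a danger signal. It opens P2X channels, which are trimeric ion channels of the plasma membrane, and P2X7 among them needs high ATP and can lead to shedding of surface proteins, pore formation and death of T cells. CD39 removes phosphates from ATP and ADP to give AMP, CD73 turns AMP into adenosine, and adenosine restrains T cells through receptors that raise cyclic AMP.

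The data are log2 expression values from Affymetrix whole-transcript arrays of total RNA, with 3 arrays from wild-type mice (WT) and 3 from mice whose PLZF, the transcription factor encoded by Zbtb16 on which iNKT cells depend, is a constitutively acetylated form (PLZF_ON). All 6 samples carry iNKT cells as their cell type, although RNA extraction is described for frozen tissue. The sources used here do not give the organ, the isolation of the cells, the age and sex of the mice or how the acetylated form was made. The study named replicates 1 and 2 of each group, 4 arrays, as those it analysed, and replicate 3 of each group is used here as a second, wider comparison. Whether the replicates were separate mice is not stated, so each p-value reflects the spread among these arrays, and that spread may be technical.

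The whole table showed 1 array that stood apart. Correlations across rows, which are not independent replicates, ran from 0.941 to 0.944 between PLZF_ON replicate 3 and the other 5 arrays, and from 0.972 to 0.987 among those 5. The SD over rows was 1.61 in that array and 1.85 to 1.91 in the others. Both CD8 T cell markers were highest there, with Cd8a at 6.55 against 4.39 to 4.73 and Cd8b1 at 7.77 against 5.08 to 5.89 on the log2 scale. Of 6 macrophage and monocyte markers 4 were highest there, among them Lyz2 at 6.58 against 3.96 to 4.48. The others of the 4 were Csf1r, Fcgr1 and Adgre1, at 5.09, 4.745 and 3.955, under the background level over the 6 arrays given below. Cd68 was lowest there, at 5.32 against 6.45 to 6.95, and Itgam, at 5.24, lay within the range of the others. All 3 hepatocyte markers were also highest there, with Alb at 5.215, Apoa1 at 5.668 and Ttr at 5.445. On the other arrays they were at 3.90 to 4.33, 5.04 to 5.30 and 4.77 to 5.04, near or under that background level. Dim markers of other lists were highest there too, namely Pax5, Ebf1, Ms4a1 and Blnk of B cells and Col1a1 and Epcam of stroma and endothelium. Cd79a, Cd79b, Col1a2, Pecam1 and Cdh5 of those lists were not. T cell markers bore out T cells on all arrays, with the 5 measured markers between 8.60 and 11.49. They do not separate iNKT cells from other T cells. Zbtb16 was at 9.958, 10.185 and 9.820 in WT replicates 1, 2 and 3 and at 10.480, 10.676 and 9.537 in those of PLZF_ON. Its difference was 0.51 over the 4 arrays (limma adjusted p = 0.369) and 0.24 over the 6 (limma adjusted p = 0.941). Of 5 iNKT markers, Zbtb16 among them, 5 had a higher mean in PLZF_ON over the 4 arrays. Of these 0 passed limma and 4 had an unadjusted p under 0.05, where 4.88% of all rows were higher at that limit. The 2 natural killer cell markers measured varied within both groups. Ncr1 was at 5.80, 6.68 and 7.48 in WT replicates 1, 2 and 3 and at 7.65, 4.80 and 8.25 in those of PLZF_ON. Eomes was at 4.60, 5.31 and 5.85 in WT and 6.33, 4.22 and 5.62 in PLZF_ON. The 95th percentile of the means of 1405 rows of olfactory and vomeronasal receptor genes, which T cells are not known to use, was 5.07 over the 4 arrays and 5.20 over the 6 and serves here as the background level. With so few arrays every value has limited precision, and in bulk RNA fewer cells of a type and less RNA per cell cannot be told apart.

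P2rx7 encodes P2X7, the ATP-gated channel of this family with the widest known role in T cells. On the log2 scale the WT arrays read 6.28, 7.42 and 7.03 and the PLZF_ON arrays 9.04, 9.14 and 7.64, given here and below in the order of replicates 1, 2 and 3. All PLZF_ON arrays lay above all WT arrays, but PLZF_ON replicate 3 lay just above WT replicate 2, while PLZF_ON replicates 1 and 2 differed by little from each other. Over the 4 arrays the mean was 6.85 ± 0.81 in WT and 9.09 ± 0.07 in PLZF_ON (SD, n = 2 arrays per group). This is a log2 difference of 2.24 (SE 0.35, 95% interval 1.38 to 3.10), or 4.72-fold, and it did not pass limma over all rows (adjusted p = 0.102). A difference of at least this size was seen in 0.153% of the 23521 rows tested. Over all 6 arrays the difference was 1.69 (SE 0.44, limma adjusted p = 0.414, n = 3 arrays per group).

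Entpd1 encodes CD39, the ectoenzyme that starts the breakdown of extracellular ATP. The WT arrays read 6.54, 6.04 and 6.24 (log2) and the PLZF_ON arrays 5.06, 5.13 and 5.40. Every PLZF_ON array was below every WT array, and the PLZF_ON arrays of the 4-array comparison were close to the background level of 5.07. The 4-array means were 6.29 ± 0.35 in WT and 5.09 ± 0.05 in PLZF_ON (SD, n = 2 arrays per group). The log2 difference was -1.19 (SE 0.19, 95% interval -1.66 to -0.72), and it did not pass limma over all rows (adjusted p = 0.11). No fold is given, because the PLZF_ON mean lay only 0.02 above the background level over the 4 arrays and, at 5.19, just under the level of 5.20 over the 6. With all 6 arrays the difference was -1.08 (SE 0.19, limma adjusted p = 0.14, n = 3 arrays per group).

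On every array the ATP-sensing channel was higher and the ATP-degrading enzyme lower in PLZF_ON than on any WT array. Both passed when PLZF_ON replicate 3, the array that stood apart, was left out of the 6. More rows of the whole table also passed in that set than over the 6 arrays, with the counts given in the last paragraph. P2rx7 was then higher by 2.18 log2 units (SE 0.31; limma, adjusted p = 0.0456) and Entpd1 was lower, at -1.18 (SE 0.17, limma adjusted p = 0.0477), with 3 WT and 2 PLZF_ON arrays. Over the 4 arrays the call also depended on single WT arrays. P2rx7 passed without WT replicate 1 (1.67, limma adjusted p = 0.0429) and without WT replicate 2 (2.81, adjusted p = 0.00745), and Entpd1 passed without WT replicate 2 (-1.45, limma adjusted p = 0.0427). In those fits the lone WT array is assumed to vary like the PLZF_ON arrays, which lay close together. Over all alternatives to the 4-array fit the limma adjusted p ranged from 0.00745 to 0.427 for P2rx7 and from 0.0427 to 0.416 for Entpd1, and neither difference changed sign.

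**Figure D1:**
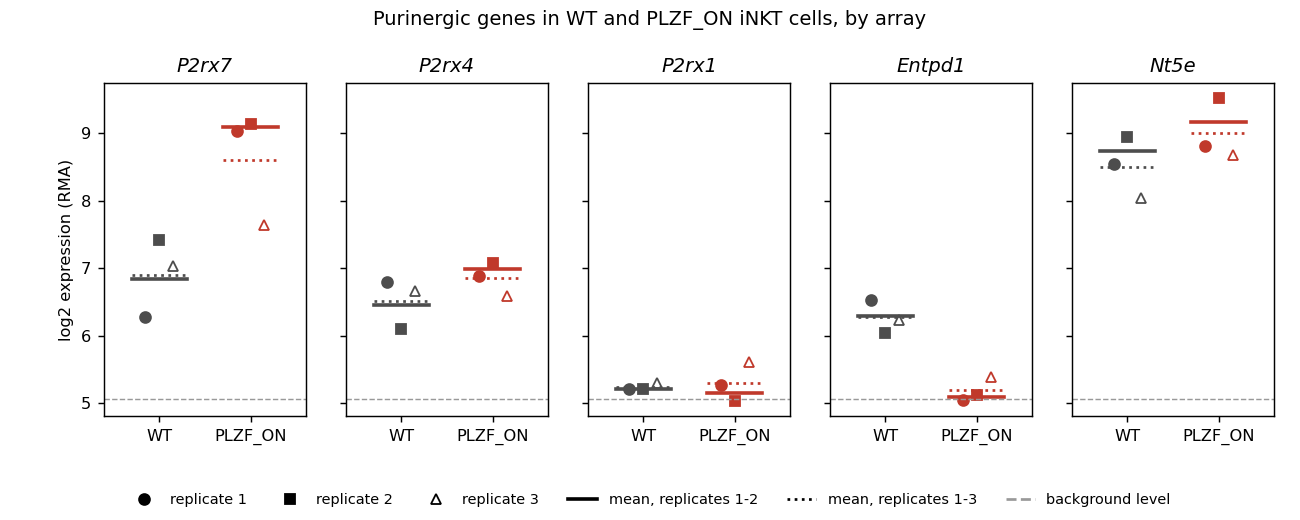
Log2 expression (RMA, vertical axis) of the 5 measured genes in WT (grey) and PLZF_ON (red), 1 symbol per array, with open triangles for replicate 3, solid lines for the mean of replicates 1 and 2, dotted lines for the mean of all 3 and a dashed line for the background level of 5.07. P2rx7 lies between 6.28 and 7.42 in WT and between 7.64 and 9.14 in PLZF_ON, Entpd1 lies between 6.04 and 6.54 in WT and between 5.06 and 5.40 in PLZF_ON, and the groups of the other genes overlap over the 6 arrays.

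The sequence upstream of these genes is shown because they are the members with the widest separation of the groups. RefSeq gives each of them 2 transcription starts, and the 250 bases before each start are printed in the direction of transcription, on the plus strand of GRCm38.p6, taken from a RefSeq promoter table and not from the arrays. Capitals mark matches on either strand to 4 short motifs: the half-site of the cyclic AMP response element (TGACG), the GC box bound by Sp-family factors (GGGCGG), the T-box core (AGGTGT) and the Runx core (TGTGGT).
P2rx7, first start, chr5:122643677-122643926: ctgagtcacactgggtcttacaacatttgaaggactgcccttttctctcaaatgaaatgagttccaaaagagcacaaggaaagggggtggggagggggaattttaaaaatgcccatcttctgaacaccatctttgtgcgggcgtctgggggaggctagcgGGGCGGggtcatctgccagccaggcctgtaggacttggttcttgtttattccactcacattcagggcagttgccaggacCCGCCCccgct
P2rx7, second start, chr5:122650133-122650382: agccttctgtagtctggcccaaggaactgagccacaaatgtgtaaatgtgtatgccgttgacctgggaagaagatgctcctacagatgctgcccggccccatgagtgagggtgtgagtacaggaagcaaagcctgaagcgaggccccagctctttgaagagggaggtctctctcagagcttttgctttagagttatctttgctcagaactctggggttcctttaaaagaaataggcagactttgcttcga
Entpd1, first start, chr19:40612116-40612365: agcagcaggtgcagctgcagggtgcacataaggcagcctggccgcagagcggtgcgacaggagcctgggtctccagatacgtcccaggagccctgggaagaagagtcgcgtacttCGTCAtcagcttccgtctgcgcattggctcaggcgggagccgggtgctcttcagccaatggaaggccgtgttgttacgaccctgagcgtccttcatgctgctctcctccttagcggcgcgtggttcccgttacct
Entpd1, second start, chr19:40659520-40659769: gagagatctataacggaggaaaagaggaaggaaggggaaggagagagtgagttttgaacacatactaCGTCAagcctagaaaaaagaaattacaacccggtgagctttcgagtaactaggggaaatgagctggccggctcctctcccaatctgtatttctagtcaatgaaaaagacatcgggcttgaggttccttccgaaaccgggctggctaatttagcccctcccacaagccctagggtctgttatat

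The first P2rx7 window holds 2 GC boxes, beginning 90 and 11 bases before the start, and the second holds none of the 4 motifs. Each Entpd1 window holds 1 match to the cyclic AMP half-site, on the minus strand, beginning 135 bases before the first start and 183 before the second. Of 32851 upstream windows of the same length in the table, 32.7% hold a GC box, 17.8% the half-site, 11.8% the T-box core and 14% the Runx core, so all 4 are common. A match is a description of letters, and the arrays do not show which start was used.

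P2rx4 encodes P2X4, a channel that opens at lower ATP than P2X7. It lies beside P2rx7 on mouse chromosome 5, and 2 genes of the RefSeq gene table start between their starts, the microRNA gene Mir8115, which overlaps P2rx7, and the pseudogene Gm10064, which lies between both. The log2 level of P2rx4 was 6.80, 6.11 and 6.66 in WT and 6.89, 7.08 and 6.59 in PLZF_ON. The groups overlapped over the 6 arrays, and WT replicate 2 was the lowest of all. The difference over the 4 arrays was 0.53 (SE 0.24, 95% interval -0.05 to 1.12, limma adjusted p = 0.592), and over 6 it was 0.33 (SE 0.23, limma adjusted p = 0.941). The gene overlaps Camkk2 in the gene table, whose own row lay between 5.94 and 6.42 on the 6 arrays.

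P2rx1 encodes P2X1, a fast-desensitising ATP channel best known from platelets and smooth muscle. It read 5.21, 5.21 and 5.30 in WT and 5.27, 5.04 and 5.62 in PLZF_ON, which is near the background level in both groups. The difference was -0.06 over the 4 arrays (SE 0.14, 95% interval -0.40 to 0.29, limma adjusted p = 0.959) and 0.07 over the 6, so its direction was not settled.

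Nt5e encodes CD73, the enzyme that makes adenosine from the AMP left by CD39. It read 8.54, 8.95 and 8.04 in WT and 8.82, 9.52 and 8.67 in PLZF_ON, well above background on each array. The groups overlapped, as WT replicate 2 lay above PLZF_ON replicates 1 and 3. The difference was 0.43 over the 4 arrays (SE 0.26, 95% interval -0.22 to 1.07, limma adjusted p = 0.731) and 0.50 over the 6 (SE 0.30, 95% interval -0.20 to 1.19, limma adjusted p = 0.941). Both intervals include 0.

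**Figure D2:**
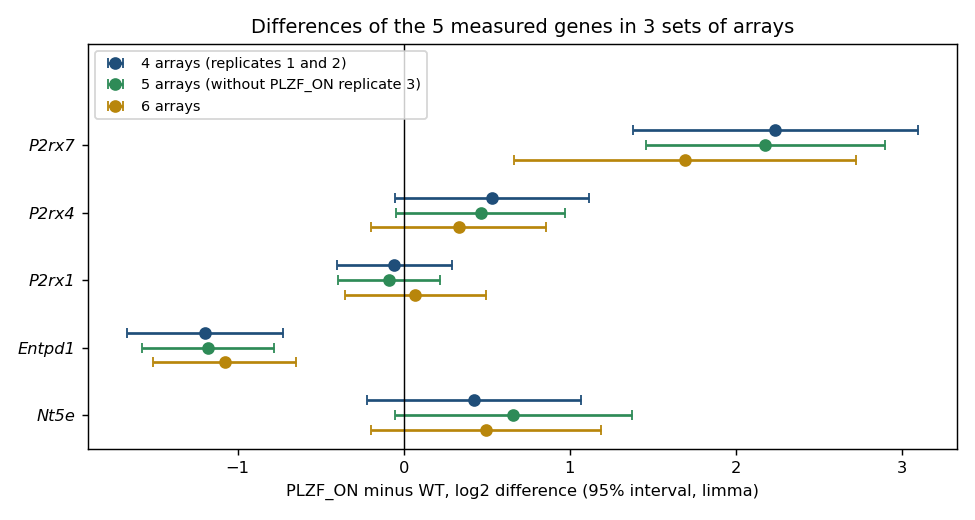
Differences between PLZF_ON and WT (log2, horizontal axis) with 95% limma intervals for the 5 measured genes, over the 4 arrays of replicates 1 and 2 (blue), over 5 arrays without PLZF_ON replicate 3 (green) and over all 6 (yellow). The intervals of P2rx7 lie above 0 and those of Entpd1 below 0 in all 3 sets, while those of P2rx4, P2rx1 and Nt5e include 0.

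Over the 4 arrays 0 of the 5 members passed limma over all rows, where 0.170% of rows did (40 rows, 24 higher and 16 lower in PLZF_ON). At an unadjusted p under 0.05 there were 2 members, P2rx7 and Entpd1, where 9.41% of rows reached that limit. The groups did not overlap over the 4 arrays for 3 members, P2rx7 and P2rx4 higher and Entpd1 lower in PLZF_ON, and for 38.2% of all rows (18.9% higher and 19.3% lower). Over the 6 arrays 0 of 5 passed limma, where 0.0935% of rows did (22 rows, 6 higher and 16 lower, or 8 higher and 13 lower after quantile normalization), and the same 2 members had an unadjusted p under 0.05, which 5.77% of rows reached (2.45% higher and 3.32% lower). The groups did not overlap over the 6 arrays for 2 of 5 members, and for 11.8% of all rows (5.55% higher and 6.22% lower). The median difference of the 5 members was 0.43 over the 4 arrays, beside -0.0035 for all rows.

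**Figure D3:**
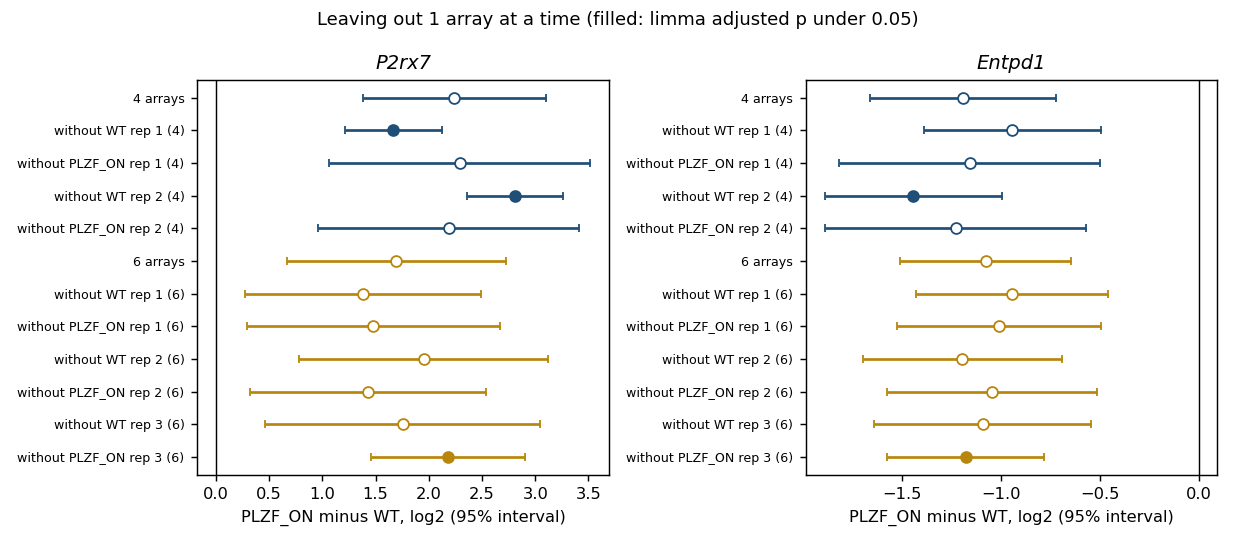
Differences of P2rx7 (left) and Entpd1 (right) between PLZF_ON and WT (log2, with 95% limma intervals) in the 4-array comparison (blue, marked 4) and the 6-array comparison (yellow, marked 6) and with each array left out in turn; filled symbols passed the limma adjusted p of 0.05. P2rx7 ranges from 1.38 to 2.81 and Entpd1 from -1.45 to -0.94, and the calls appear without WT replicate 1 or 2 (P2rx7) or WT replicate 2 (Entpd1) in the 4-array comparison and without PLZF_ON replicate 3 in the 6-array comparison.

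The subsets of iNKT cells differ in the genes they use, and their markers were followed beside the members. Of the NKT1 markers, those of the interferon-gamma-producing subset, 10 of 10 had a lower mean in PLZF_ON over the 4 arrays (0 passed limma, 8 had an unadjusted p under 0.05), with a summed intensity of 9389 to 11289 on the WT arrays and 2293 to 5455 on the PLZF_ON arrays. Of the NKT17 markers 6 of 6 measured had a lower mean, with summed intensities of 412 to 881 and 139 to 162, and Il1r1, Il23r and Blk among them passed limma over all rows. Over the 6 arrays Il1r1 and Il23r passed and Blk did not (limma adjusted p = 0.309). Of the NKT2 markers, those of the interleukin-4-producing subset, 6 of 6 had a higher mean over the 4 arrays (0 passed limma, 5 had an unadjusted p under 0.05). Their summed intensities were 1672 to 2109 on the WT arrays and 1272 to 3256 on the PLZF_ON arrays, the lowest being PLZF_ON replicate 3. All 6 were lower in PLZF_ON replicate 3 than in WT replicate 3. Over the 6 arrays their groups all overlapped, and 0 had an unadjusted p under 0.05. Over the 4 arrays 0.170% of all rows passed limma, and 4.88% were higher and 4.53% lower at an unadjusted p under 0.05. The marker lists were chosen with earlier results of these data known, so these counts are a description. The part of the subsets in the values of P2rx7 and Entpd1 was not tested.

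CD39 is also abundant on regulatory T cells, B cells and myeloid cells. Foxp3, the defining factor of regulatory T cells, was between 5.02 and 5.14 on the 4 arrays, near background in both groups, at 5.06 in WT replicate 3 and at 5.60 in PLZF_ON replicate 3. Ctla4 was also highest in PLZF_ON replicate 3, at 5.68 against 3.66 to 4.28. Ikzf2 and Tnfrsf18, from the same list, were lowest in that array, at 8.04 against 9.11 to 9.52 and at 7.372 against 7.655 to 8.091. Gpr83, from the same list, had a higher mean in PLZF_ON over the 4 arrays (0.85, limma adjusted p = 0.152). Il2ra, from the same list, was at 6.160, 6.203 and 6.098 in WT and 6.074, 5.665 and 5.889 in PLZF_ON. Its groups did not overlap over the 6 arrays, where 6.22% of all rows were lower without overlap. The difference was -0.31 over the 4 arrays (limma adjusted p = 0.689) and -0.28 over the 6 (limma adjusted p = 0.941). Over the 6 arrays the 6 regulatory T cell markers summed to 915 to 968 in WT and 610 to 1073 in PLZF_ON. Of 6 measured B cell markers 0 lay above the background level, and their summed intensity was 103 to 113 in WT and 106 to 127 in PLZF_ON. Of 6 measured macrophage and monocyte markers 2 lay above it (Cd68 and Itgam), with sums of 210 to 220 and 206 to 250.

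Among all other named genes, Pdlim1, Syne1 and Slc12a2 had the profile closest to that of P2rx7 by Euclidean distance after centring over the 6 arrays (0.38, 0.52 and 0.62 log2 units). Their Pearson correlations with P2rx7 over those arrays were 0.99, 0.98 and 0.97. These are a description, since the rows were chosen for closeness on the same 6 arrays and share the difference between the groups. Pdlim1, a cytoskeletal adaptor, was at 7.04, 8.29 and 7.59 in WT and 9.58, 9.56 and 8.40 in PLZF_ON. Like P2rx7 it had its lowest value in WT replicate 1 and its lowest PLZF_ON value in replicate 3, a likeness that the choice by profile favours. Slc12a2, a sodium-potassium-chloride cotransporter, passed limma over the 4 arrays (2.43, SE 0.26, adjusted p = 0.0456) but not over the 6 (1.63, adjusted p = 0.675), where its groups overlapped, PLZF_ON replicate 3 at 6.49 lying below WT replicate 2 at 6.55. The row of Syne1, a nuclear envelope protein, did not pass over the 4 arrays (2.23, SE 0.31, limma adjusted p = 0.0774). It was taken for its profile, and other rows of Syne1 on the array were not followed here.

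The other genes of the pathway were taken from a list of 71, of which 62 were measured. None passed limma over the 4 arrays or over the 6. An unadjusted p under 0.05 was reached by 7 that were higher and 6 that were lower over the 4 arrays. At that limit 4.88% of all rows were higher and 4.53% lower, and the counts by role below are to be read beside these shares. The median difference of the 62 genes was 0.0005, beside -0.0035 for all rows.

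Among 12 other ATP channels and receptors, 0 passed limma and 2 had an unadjusted p under 0.05, both lower in PLZF_ON. P2ry10, a receptor of lymphocytes for lysophospholipids that is grouped with the P2Y family by sequence, was at 5.91, 6.03 and 5.69 in WT and 5.41, 5.16 and 4.69 in PLZF_ON, with no overlap (-0.68 over the 4 arrays, SE 0.15, limma adjusted p = 0.203). Its near-identical neighbour P2ry10b could share this row's signal, so the gene behind the value is uncertain. P2rx2, another channel subunit, lay under the background level in both groups. Only 2 of the 12 had a group mean above background.

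Of 4 genes for the release of ATP from cells 0 passed limma and 0 had an unadjusted p under 0.05. Panx1, the pannexin channel that releases ATP from T cells, was at 7.89, 7.60 and 7.96 in WT and 8.02, 7.95 and 7.17 in PLZF_ON, and its groups overlapped. Slc17a9, which loads ATP into vesicles, was at 6.28, 6.44 and 6.51 in WT and 6.19, 6.02 and 5.98 in PLZF_ON (-0.25 over the 4 arrays, SE 0.14, limma adjusted p = 0.693).

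Of 9 other nucleotide-degrading enzymes measured, not all of them at the cell surface, 0 passed limma, and 3 had an unadjusted p under 0.05. Acpp, an acid phosphatase that can also make adenosine from AMP, was at 5.95, 5.84 and 6.0 in WT and 4.97, 5.20 and 4.61 in PLZF_ON, with no overlap between the groups and a PLZF_ON mean at background (-0.81, SE 0.15, limma adjusted p = 0.142). Entpd5, an intracellular relative of CD39 that acts on nucleoside diphosphates in the endoplasmic reticulum, was at 7.57, 7.95 and 6.96 in WT and 7.17, 7.06 and 6.85 in PLZF_ON (-0.64, SE 0.17, limma adjusted p = 0.292), and the groups overlapped over the 6 arrays. Alpl, a tissue-nonspecific alkaline phosphatase, had 2 rows that disagreed, with differences of 0.52 and -0.15. The 3 ADP-ribosyltransferases measured and the adenosine receptor Adora3 had no unadjusted p under 0.05, and Adora3 lay under the background level.

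The widest differences among the other genes were in the uptake and metabolism of adenosine inside cells. Of 13 genes measured 0 passed limma over the 4 arrays, and 5 were higher and 1 lower at an unadjusted p under 0.05. At that limit 4.88% of all rows were higher and 4.53% lower, and the median difference of the 13 genes was 0.0165. Adk encodes adenosine kinase, which turns adenosine back into AMP. Its log2 level was 5.28, 5.88 and 5.74 in WT and 7.15, 7.62 and 6.80 in PLZF_ON, so that the groups did not overlap. The difference was 1.80 over the 4 arrays (SE 0.25, limma adjusted p = 0.0788) and 1.55 over the 6 (limma adjusted p = 0.127). It passed without PLZF_ON replicate 3 among the 6 arrays (1.75, limma adjusted p = 0.0324) and without WT replicate 2 among the 4 (2.11, adjusted p = 0.0297).

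Slc29a1 encodes ENT1, the equilibrative transporter through which adenosine enters and leaves cells. It was at 6.68, 6.90 and 6.58 in WT and 7.79, 8.39 and 6.98 in PLZF_ON, again without overlap, although PLZF_ON replicate 3 lay only just above the WT arrays. The difference was 1.30 over the 4 arrays (SE 0.22, limma adjusted p = 0.118). Its other row, under the background level, gave 0.62. Slc28a2, a concentrative nucleoside transporter, was at 8.13, 8.25 and 8.18 in WT and 7.80, 7.61 and 7.58 in PLZF_ON (-0.49, SE 0.14, limma adjusted p = 0.343), opposite in direction to Slc29a1. Nt5c2, a cytosolic nucleotidase, was at 6.46, 6.47 and 6.21 in WT and 7.25, 7.10 and 6.28 in PLZF_ON (0.71, SE 0.13, limma adjusted p = 0.152), and its replicate 3 value lay among the WT values. The AMP deaminases Ampd1 and Ampd3, named after their values were seen, had differences of 0.72 and 0.43, and Ada, the deaminase that removes adenosine, had -0.30 (limma adjusted p = 0.395, 0.439 and 0.805).

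**Figure D4:**
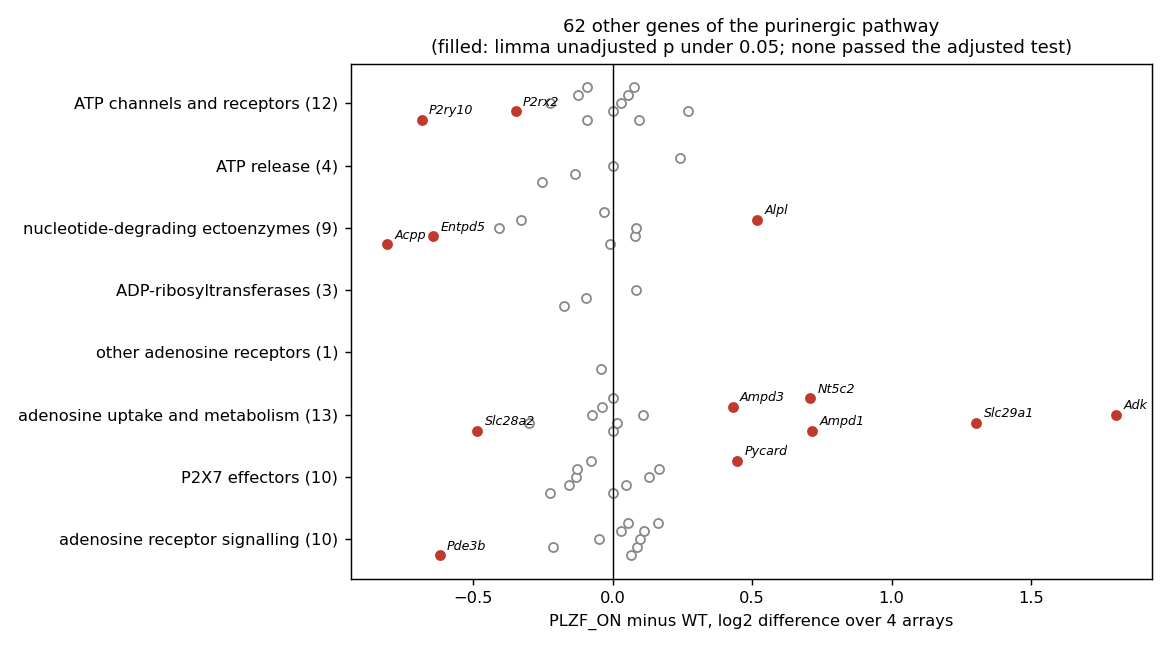
Differences between PLZF_ON and WT over the 4 arrays (log2, horizontal axis) for the 62 other pathway genes measured, 1 symbol per gene, in rows by role with the number of genes in brackets; filled symbols had a limma unadjusted p under 0.05. Adk at 1.80 and Slc29a1 at 1.30 lie farthest to the right, Acpp at -0.81 and P2ry10 at -0.68 farthest to the left, and no gene passed the adjusted test.

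Of 10 genes for proteins that act after P2X7 0 passed limma and 1 had an unadjusted p under 0.05, Pycard, the adaptor of inflammasomes. It was at 7.78, 7.62 and 7.94 in WT and 8.08, 8.21 and 7.30 in PLZF_ON (0.45 over the 4 arrays, SE 0.14, limma adjusted p = 0.387), with PLZF_ON replicate 3 the lowest of all. Adam17, a protease that sheds surface proteins after P2X7 opens, differed by 0.13, and Cd27, a shed co-stimulatory receptor, by 0.0005. Gsdmd, the pore-forming gasdermin D, had 2 rows, both lower on every PLZF_ON array. The differences were -0.23 for the brighter and -0.53 for the dimmer row (limma adjusted p = 0.725 and 0.251). The dimmer row had a limma unadjusted p of 0.00629 over the 4 arrays and 0.00352 over the 6. It did not enter the count above, which takes the brighter row of each gene.

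Of 10 genes that carry the adenosine receptor signal, 0 passed limma and 1 had an unadjusted p under 0.05. Pde3b, a phosphodiesterase that breaks down cyclic AMP, was at 9.73, 9.61 and 9.55 in WT and 9.06, 9.04 and 8.34 in PLZF_ON, with every PLZF_ON array below every WT array. Its difference was -0.62 over the 4 arrays (SE 0.13, limma adjusted p = 0.188) and -0.82 over the 6 (limma adjusted p = 0.439). The kinase subunit Prkaca had 2 rows of opposite direction (0.10 and -0.26), and Pde4b and Pde4d differed by 0.16 and 0.07.

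**Figure D5:**
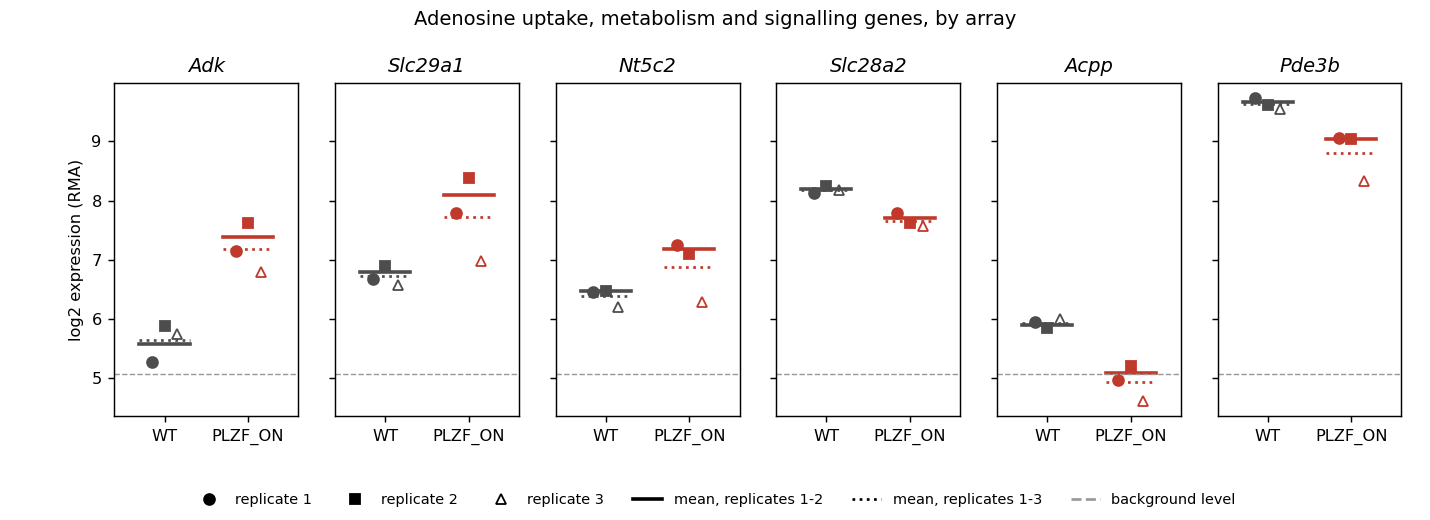
Log2 expression (RMA, vertical axis) of 6 genes of adenosine uptake, metabolism and signalling in WT (grey) and PLZF_ON (red), 1 symbol per array, with open triangles for replicate 3, solid lines for the mean of replicates 1 and 2, dotted lines for the mean of all 3 and a dashed line for the background level. Adk lies between 5.28 and 5.88 in WT and between 6.80 and 7.62 in PLZF_ON, Pde3b between 9.55 and 9.73 in WT and between 8.34 and 9.06 in PLZF_ON, and only the groups of Nt5c2 overlap.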

How the data were processed

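The deposited values are on the log2 scale, 1 row per array feature, and were used as deposited. The submitters' processing notes name RMA, with no version. RMA corrects background and summarises probes, which compresses differences of dim genes; it usually also equalises the arrays' distributions, but their SDs differed here, so whether the arrays were normalised together is not known. Build and annotation: not given in the sources used here. Of 41345 rows, 23521 had 1 gene symbol in the platform annotation and were tested, 1814 had several and 16010 were not listed. No row was dropped for low level.

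Groups came from the sample titles. PLZF_ON was compared with WT over replicates 1 and 2 (the arrays named in the design description) and over all 6 arrays, using lmFit and eBayes of limma 3.58.1 under R 4.3.3 (two-sided, genotype as the only term) and Benjamini-Hochberg adjustment over the tested rows at 0.05. Summed intensities are sums of the values taken out of the log. Scripts were tested on simulated data.

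Members and lists were chosen with earlier results of these data known. Named were the members, the 3 rows closest in profile to the member with the widest difference, and up to 4 genes per pathway role with the smallest unadjusted p; the further limit of 0.05 on that p, and the other genes given with values, were chosen after the values were seen. The alternatives tried were a block for replicate number, each array left out, 2 filters on dim rows, a variance trend, quantile normalization, median centring, all deposited rows, array weights, a mean over each gene's rows and the other set of arrays.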

Additional observations from a re-analysis of the deposited data

How the results depend on the processing

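Members and named pathway genes, 16 in all, were followed through 476 results of alternative settings. In 456 the direction and the side of the threshold were kept, in 13 a gene came to pass and in 7 the sign turned. None of the 16 passed in the main fit of either comparison, so no call could be lost and the count of 456 does not measure robustness of a call. For P2rx1 over 4 arrays the sign turned with all 6 arrays used (0.068) and without PLZF_ON replicate 2 (0.058), and the range with 1 array left out was -0.17 to 0.058. For P2rx1 over 6 arrays it turned with array weights (-0.058), with replicates 1 and 2 alone (-0.056) and without PLZF_ON replicate 3, the range being -0.088 to 0.203. For Pycard over 6 arrays it turned without PLZF_ON replicate 1 or 2, the range being -0.0905 to 0.366. None of these differences passed limma. The number of members passing limma went from 0 to between 0 and 2 when single arrays were left out of either comparison, and to 2 (P2rx7 and Entpd1) with array weights over 6 arrays, which gave PLZF_ON replicate 3 a weight of 0.15 against 0.99 to 1.70; Adk, Slc29a1 and Acpp also passed then.

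In place of the 40 rows passing over 4 arrays, the count was 0 in limma when all deposited rows were tested (3042 with an unadjusted p under 0.05), 22 with all 6 arrays, and when 1 array was left out it lay between 0 (limma without PLZF_ON replicate 2, where 1803 rows had p under 0.05 before adjustment) and 106 (without WT replicate 2). The 22 rows over 6 arrays became 5 with median centring, 0 with all deposited rows (2100 with an unadjusted p under 0.05), 259 with array weights, 40 with replicates 1 and 2 alone, and 0 to 107 with 1 array left out: 0 in limma without WT replicate 1, WT replicate 2 or PLZF_ON replicate 2 (852, 960 and 1531 with an unadjusted p under 0.05), 1 without WT replicate 3, 6 without PLZF_ON replicate 1 and 107 without PLZF_ON replicate 3. The causes were not tested. The replicate numbers are not stated to pair the samples. The deviations of same-numbered arrays correlated at 0.13 over 4 arrays and at 0.09, 0.25 and 0.24 over 6, and PLZF_ON replicate 1 correlated better with WT replicate 2 (0.12) than with WT replicate 1. In the fit with a replicate block, 101 rows passed over 4 arrays and 30 over 6, 0 members passed in either, and Adk passed over 4 (adjusted p = 0.0218). Levels near background, those of P2rx1 and of Entpd1 in PLZF_ON, limit what the arrays can resolve.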
